A study of Homo sapiens with 36 samples.

Results

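The genes described here are 10 components of Wnt signalling in THP-1 cells, a human monocytic leukaemia line. They are the ligands WNT7B and WNT5B, the receptors FZD1, FZD2 and FZD7, the co-receptors LRP5 and LRP6, the nuclear factors LEF1 and TCF7L2 and the feedback gene AXIN2. They were taken by symbol from the 57500 genes counted in each library. WNT7B was chosen by its higher level in NR4A2-depleted than in control cells of these same libraries, so that difference is a description and was not tested. Every other member's difference between shNR4A2 and shNT cells is treated in the same way.

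All 12 conditions used THP-1 cells stably transduced with lentiviral short hairpin RNA. The hairpin was a non-target sequence in shNT cells and was directed at NR4A2 in shNR4A2 cells and at NR4A3 in shNR4A3 cells. Each line was held in pH-buffered medium at 5% or 10% CO2 for 4 h, without (basal) or with LPS at 2.5 µg/ml for the final 2 h. Every condition had 3 replicates, giving 36 libraries of polyA-selected RNA. The study asked how loss of NR4A2 or NR4A3 alters the response of monocytes to hypercapnia. Because each hairpin is represented by 1 line, the hairpin and other properties of its line cannot be told apart.

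Wnt proteins are secreted ligands that bind Frizzled receptors together with the co-receptors LRP5 or LRP6. This stabilises β-catenin, which enters the nucleus and acts through TCF/LEF factors, and AXIN2 is a widely used transcriptional readout of that branch. WNT5B is known mainly for β-catenin-independent signalling, and WNT7B can signal through RECK and ADGRA2 (GPR124) at the surface of the receiving cell. In monocytes and macrophages, Wnt ligands are known as signals sent to neighbouring tissue, and macrophage WNT7B is known from vessel regression in the eye and from repair of the kidney.

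Libraries held 16171161 to 23929138 counts (median 19639071). The hairpin targets were checked first. With LPS, NR4A2 stood at 14.8 to 28.3 TPM (transcript level corrected for gene length and library depth) in shNR4A2 libraries at 5% CO2, against 51.3 to 74.7 TPM in shNT libraries, and at 13.4 to 16.5 against 44.0 to 51.6 TPM at 10% CO2. NR4A3 with LPS stood at 16.7 to 18.2 TPM in shNR4A3 libraries at 5% CO2 and at 12.5 to 20.0 TPM at 10% CO2, against 30.7 to 38.6 TPM over the 6 shNT libraries with LPS. Basal NR4A3 at 10% CO2 was 0.185 to 0.232 TPM in shNR4A3 and 0.176 to 0.374 TPM in shNT libraries, which overlapped. Other NR4A genes also differed between lines. In shNR4A3 against shNT cells, NR4A1 was lower at 10% CO2 (log2 fold change −0.76, edgeR adjusted p = 0.0057). NR4A2 was lower in the same lines at 10% CO2 with LPS (−0.32, edgeR adjusted p = 0.017). In shNR4A2 cells NR4A3 stood higher than in shNT cells at 10% CO2 with LPS (0.57, SE 0.11). Their part in the differences between lines below was not tested. The 8 monocyte markers examined had mean levels of 3.37 to 744 TPM, with SPI1 the highest, and the 12 markers of other lineages had means of 0.0059 to 3.09 TPM. The summed level of the monocyte markers differed between lines, at 870 to 1271 TPM in shNT, 1529 to 1903 TPM in shNR4A2 and 1656 to 2290 TPM in shNR4A3 libraries. Its part in the differences between lines below was not tested. In bulk RNA, fewer cells of a type and less RNA per cell cannot be told apart.

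RefSeq promoter windows (GRCh38.p14, 250 bases before to 50 after a start) were held for 5 of the 10 members, FZD1, TCF7L2, LRP5, LEF1 and WNT5B, in 8 windows. The stretches upstream of the starts of FZD1 (chr7:91264183-91264363, plus strand) and TCF7L2 (chr10:112949997-112950246, plus strand) are shown because these genes rose together with LPS in every line. Capitals mark the GC box GGGCGG or its reverse complement CCGCCC.
FZD1: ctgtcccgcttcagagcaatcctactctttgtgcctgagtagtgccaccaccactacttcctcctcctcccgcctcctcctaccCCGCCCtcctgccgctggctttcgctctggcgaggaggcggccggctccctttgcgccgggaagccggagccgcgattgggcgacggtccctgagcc
TCF7L2: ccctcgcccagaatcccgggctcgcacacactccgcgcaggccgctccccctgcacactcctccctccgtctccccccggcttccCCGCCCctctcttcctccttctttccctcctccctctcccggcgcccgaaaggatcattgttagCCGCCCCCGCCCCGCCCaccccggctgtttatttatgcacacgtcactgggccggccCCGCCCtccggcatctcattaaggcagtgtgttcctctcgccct
The FZD1 stretch held 1 GC box and the TCF7L2 stretch held 5, of which the 3 in the longest capital run abut or overlap. GC boxes were common, with 45% of the 35116 windows in the table holding at least 1. Both strands of the 8 members' windows were also searched for the NR4A monomer element AAAGGTCA, the TCF/LEF core CTTTGAT and the AP-1 site TGACTCA, and none of the 3 was present. These letters occur in 1.22%, 2.62% and 4.95% of all windows.

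LRP5 and FZD1 were the most abundant members, with means over all libraries of 39.0 TPM (lowest library 26.4, highest 52.2) and 19.5 TPM (12.7 to 32.4). TPM corrects for gene length, so these levels can be compared between genes. FZD7 averaged 13.1 TPM (5.26 to 26.0), WNT7B 12.3 TPM (1.33 to 52.8), TCF7L2 6.94 TPM (2.17 to 17.5), FZD2 6.09 TPM (0.905 to 14.9) and LRP6 3.28 TPM (1.97 to 4.77). WNT7B had the widest span of these. LEF1 (1.08 TPM) and WNT5B (1.03 TPM) were low, with 10 to 68 and 9 to 55 counts per library. AXIN2 had 0 to 8 counts per library and at most 0.292 TPM, with no count in 4 libraries. It was the only member to fail the expression filter, so 9 members were tested among 17720 genes.

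Some members share their position with other annotated genes, taking whole gene spans with introns. How reads from shared stretches affect the counts depends on the strand and overlap settings of the counting. Shared exons were not examined. WNT7B (ENSG00000188064) spans bases 45920362 to 45977129 of chromosome 22 in GRCh38 and overlaps no other gene in the files. FZD1, FZD2, FZD7 and LRP5 also overlap none. WNT5B on chromosome 12 overlaps FBXL14 on the opposite strand, which averaged 16.9 TPM against 1.03 TPM for WNT5B, and the strand setting of the counting is not given in the sources used here. Whether the overlap with FBXL14 adds reads to the WNT5B counts or removes them is therefore not known, and those counts are uncertain to that extent. TCF7L2 on chromosome 10 overlaps an unnamed opposite-strand gene at 1.66 TPM, LRP6 overlaps BCL2L14 at 0.318 TPM and LEF1 overlaps LEF1-AS1 at 0.215 TPM. AXIN2 overlaps an unnamed gene on the same strand at 0.0244 TPM.

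WNT7B was highest in shNR4A2 cells in each of the 4 culture states. In basal cells at 5% CO2 the 3 shNT libraries held 8.83, 14.8 and 12.2 TPM and the shNR4A2 libraries 30.2, 52.8 and 29.4 TPM. The shNR4A3 libraries held 4.93, 12.9 and 10.8 TPM in the same state. All 3 shNR4A2 libraries were above every shNT library, whereas shNR4A3 and shNT overlapped.

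With LPS at 5% CO2, WNT7B stood at 6.18, 10.4 and 6.18 TPM in shNT, 20.5, 43.0 and 16.4 TPM in shNR4A2 and 2.56, 9.57 and 5.01 TPM in shNR4A3 libraries. In basal cells at 10% CO2 it stood at 5.35, 7.08 and 8.70 TPM in shNT, 17.1, 22.3 and 24.4 TPM in shNR4A2 and 2.96, 5.30 and 8.47 TPM in shNR4A3 libraries. At 5% CO2, with and without LPS, the second replicate was the highest of its group in each line. With LPS at 10% CO2, the lowest state in every line, the values were 3.56, 2.89 and 4.86 TPM in shNT, 8.20, 9.20 and 11.1 TPM in shNR4A2 and 1.33, 1.50 and 3.19 TPM in shNR4A3 libraries. Every shNR4A2 library exceeded every shNT library in all 4 states, as it did for 4.24% of the 17720 genes tested, a pattern the choice of WNT7B used.

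**Figure D1:**
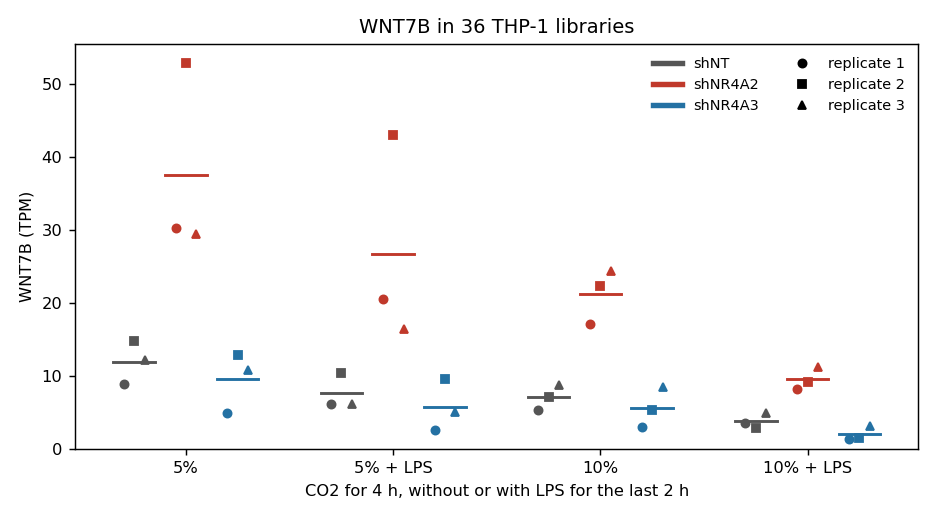
WNT7B level (TPM, linear axis from 0) in each of the 36 libraries by culture state, coloured by line; symbols are replicates and horizontal lines are means of 3. The shNR4A2 points lie above the shNT points in every state, and levels are lower at 10% than at 5% CO2 in each line.

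Ordered by mean, WNT7B ran from 37.5 TPM ± 13.3 (SD, n = 3) in basal shNR4A2 cells at 5% CO2 to 2.01 TPM ± 1.02 (SD, n = 3) in shNR4A3 cells at 10% CO2 with LPS. The first 3 places were held by shNR4A2 conditions. The next place was held by basal shNT cells at 5% CO2 with 11.9 TPM ± 2.99 (SD, n = 3), and its libraries did not overlap those of basal shNR4A2 cells at 10% CO2 above it (21.3 TPM ± 3.72). The other 10 of the 11 neighbouring pairs in the order overlapped.

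As a description, the WNT7B log2 fold change of shNR4A2 over shNT was 1.65 (SE 0.25) at 5% CO2, 1.85 (SE 0.37) at 5% CO2 with LPS, 1.55 (SE 0.16) at 10% CO2 and 1.30 (SE 0.16) at 10% CO2 with LPS. These correspond to folds of 3.15, 3.60, 2.93 and 2.47. Leaving out single libraries moved the log2 fold changes within 1.18 to 2.11. All 12 differences between libraries with the same number were positive, from 1.21 to 2.04 on the log2 scale.

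The shNR4A3 line had WNT7B values on the other side of shNT, without passing the test. Log2 fold changes over shNT were −0.29 (95% interval −1.09 to 0.51) at 5% CO2, −0.38 (−1.43 to 0.67) at 5% CO2 with LPS, −0.37 (−1.06 to 0.32) at 10% CO2 and −0.92 (−1.58 to −0.26) at 10% CO2 with LPS, and edgeR's adjusted p was 0.72, 0.68, 0.59 and 0.066. Without shNR4A3 replicate 3, the value at 10% CO2 with LPS was −1.43 (adjusted p = 0.0022). All 12 same-number differences were negative, which held for 6.61% of the 17720 genes. Replicate numbers paired the libraries in these comparisons, and with the number as a block edgeR's adjusted p was 0.043 at 10% CO2 (−0.42, SE 0.14) and 0.0016 at 10% CO2 with LPS (−0.95, SE 0.19). Averaged over the 4 states in 1 fit to all libraries, an analysis added after the data were seen, the difference was −0.49 (SE 0.22, adjusted p = 0.090), or −0.52 with the block (SE 0.18, adjusted p = 0.025). Without the block it also passed when any of 3 shNR4A3 libraries was left out (replicate 2 at 5% CO2 with LPS, or replicate 3 at 10% CO2 with or without LPS; adjusted p 0.030 to 0.050). The shNR4A2 and shNR4A3 comparisons share their shNT libraries.

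Among the other members, FZD1 and FZD7 had positive differences between shNR4A3 and shNT cells in all 4 states and FZD2 and TCF7L2 in 3 of 4, and few passed the test. Of 36 values (9 members in 4 states), 3 were called at an adjusted p under 0.05, all higher, beside 8.24% of all gene-by-state values (4.35% higher and 3.89% lower). By state, 6.19% of genes were called at 5% CO2, 5.41% at 5% CO2 with LPS, 6.85% at 10% CO2 and 14.5% at 10% CO2 with LPS. The median over the members was 0.08 on the log2 scale in these 36 values, and that of all genes was near 0. FZD2 was called at 10% CO2, with 11.3, 11 and 13.8 TPM in shNR4A3 and 7.91, 7.19 and 8.52 TPM in shNT libraries (log2 fold change 0.58, SE 0.16, edgeR adjusted p = 0.037). The libraries of the 2 lines did not overlap there, as for 23.8% of genes. TCF7L2 was called at 10% CO2 with LPS, with 14.0, 13.8 and 12.5 against 8.77, 7.79 and 7.96 TPM (0.69, SE 0.10, adjusted p = 0.00055). FZD1 was called in the same state, with 28.6, 24.2 and 23.4 against 19.6, 19.3 and 19.7 TPM (0.36, SE 0.10, adjusted p = 0.025). Neither gene overlapped between these lines in that state, where 33.2% of genes did not.

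With the replicate block 10 of the 36 values were called, against 17.5% of all gene-by-state values with the block. The added calls included FZD7 (0.38, adjusted p = 0.015), TCF7L2 (0.75, adjusted p = 0.00091) and FZD1 (0.26, adjusted p = 0.030) at 5% CO2 with LPS. They also included FZD2 in basal cells at 5% CO2 (0.58, adjusted p = 0.033) and WNT5B at 10% CO2 with LPS (0.74, adjusted p = 0.045). Averaged over states, FZD1 (0.20, SE 0.06), FZD2 (0.50, SE 0.12), FZD7 (0.27, SE 0.07) and TCF7L2 (0.34, SE 0.10) were called higher by edgeR, in an average where 32.9% of all genes were called (16% higher and 16.9% lower). LRP5 stayed between −0.16 and −0.10 and LRP6 between −0.06 and 0.16 in the 4 states, with no call. With the block, the averaged LRP5 difference of −0.13 passed (adjusted p = 0.013). The FZD2 call was lost without any of 4 libraries (the shNR4A3 libraries each in turn, or shNT replicate 2; adjusted p 0.068 to 0.17), and the FZD1 call without any of 3 (shNT replicates 1 and 3 and shNR4A3 replicate 1, all at 10% CO2 with LPS; 0.054 to 0.12).

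In shNR4A2 cells, described without a test, TCF7L2 and FZD7 followed WNT7B in the size of the difference from shNT averaged over the 4 states, at 0.80 (SE 0.09) and 0.74 (SE 0.07) on the log2 scale against 1.59 (SE 0.20) for WNT7B. LEF1 followed at 0.44 (SE 0.16). FZD7 log2 fold changes were 0.60, 0.90, 0.56 and 0.89 at 5% CO2, 5% CO2 with LPS, 10% CO2 and 10% CO2 with LPS, with SEs of 0.10 to 0.19. TCF7L2 differed by 0.43, 0.96, 0.78 and 1.05 in the same order (SEs 0.10 to 0.20). For both genes the 3 shNR4A2 libraries lay above the 3 shNT libraries in each state, on the log2 CPM scale. This held for 4.24% of the 17720 genes. FZD1 ranged from 0.11 to 0.56, LEF1 from 0.26 to 0.74 and FZD2 from 0.12 to 0.69. WNT5B ranged from −0.28 at 5% CO2 with LPS to 0.68 in basal cells at 10% CO2. LRP5 and LRP6 ranged from −0.28 to 0.03. Side by side, FZD7 with LPS at 5% CO2 stood at 14.3, 13.1 and 12.2 TPM in shNT, 23.3, 26.0 and 21.8 TPM in shNR4A2 and 16.8, 15.5 and 17.0 TPM in shNR4A3 libraries.

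**Figure D2:**
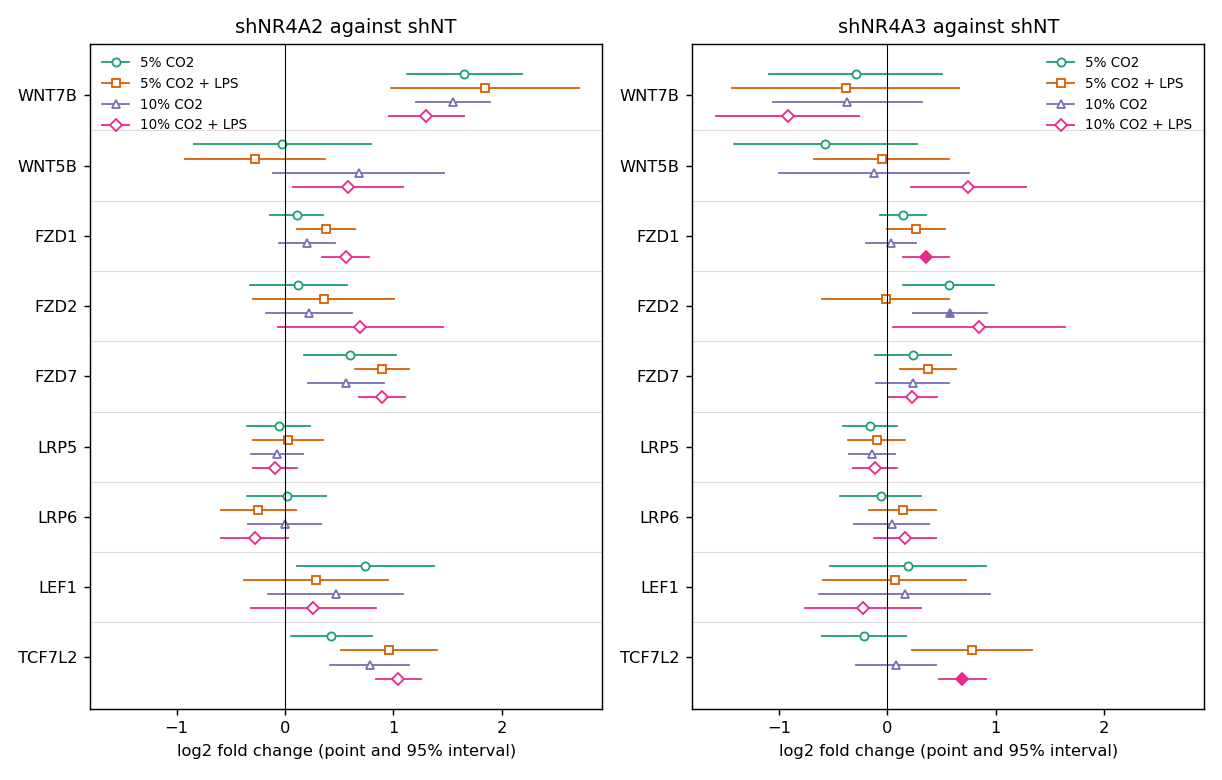
Log2 fold change over shNT (x axis, with 95% interval) of the 9 tested members in shNR4A2 (left) and shNR4A3 cells (right) in 4 culture states; filled points on the right passed edgeR's test at an adjusted p under 0.05, and points on the left were not tested. WNT7B lies right of 0 in shNR4A2 and left of 0 in shNR4A3 cells, and the 3 filled points are FZD1, FZD2 and TCF7L2.

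LPS moved the receptors and TCF7L2 in every line, and it did so in opposite directions within the Frizzled family. FZD1, FZD7 and TCF7L2 rose and FZD2 fell in all 6 comparisons (3 lines at 2 CO2 levels). Of 54 member values, 30 were called (22 higher and 8 lower), against 29.1% of all gene-by-comparison values (14% higher and 15.1% lower). The share of genes called was 22.9% and 31.2% in shNT, 18.2% and 35% in shNR4A2 and 25.3% and 42.1% in shNR4A3 cells at 5% and 10% CO2. Being called higher in all 6 comparisons held for 6.87% of genes and being called lower in all 6 for 6.09%. The member median was 0.37 on the log2 scale, and that of all genes was near 0. Scaling by library total alone in place of TMM lowered the median gene by 0.18 to 0.25 on the log2 scale and gave 22 higher and 13 lower calls. TPM is scaled within each library without TMM, so falls with LPS can look larger in TPM than in the fits. In shNT cells at 5% CO2, for example, ADGRA2 averaged 146.5 TPM without and 127.5 TPM with LPS, against a fitted log2 fold change of 0.02.

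TCF7L2 encodes the DNA-binding partner of β-catenin also known as TCF4. In shNT cells at 5% CO2 it rose from 2.61, 2.91 and 3.53 TPM to 5.98, 5.08 and 5.97 TPM (log2 fold change 1.14, SE 0.16, edgeR adjusted p = 4.82e-05). At 10% CO2 the same cells went from 2.66, 2.17 and 2.45 to 8.77, 7.79 and 7.96 TPM (2.02, SE 0.14, adjusted p = 7.51e-09). In shNR4A2 cells the log2 fold changes were 1.66 and 2.28 at 5% and 10% CO2, and in shNR4A3 cells 2.13 and 2.63. The highest libraries were those of shNR4A2 cells at 10% CO2 with LPS, at 17.4, 16.8 and 17.5 TPM. No library with LPS overlapped a library of the same line and CO2 level without it. At 5% CO2 with LPS the second replicate was the lowest in all 3 lines, at 5.08, 7.84 and 6.05 TPM in shNT, shNR4A2 and shNR4A3 cells.

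FZD2 fell most among the members. In shNT cells it went from 6.40, 10.6 and 10.5 TPM to 1.98, 2.30 and 2.29 TPM at 5% CO2 (−1.83, SE 0.25, edgeR adjusted p = 3.83e-05). At 10% CO2 it went from 7.91, 7.19 and 8.52 TPM to 0.946, 0.905 and 1.18 TPM (−2.67, SE 0.25, adjusted p = 1.98e-07). Log2 fold changes in the hairpin lines lay between −2.42 and −1.61, and no group with LPS overlapped its basal group.

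FZD7 rose in shNT cells from 8.47, 8.85 and 7.05 to 14.3, 13.1 and 12.2 TPM at 5% CO2 (0.92, SE 0.14, edgeR adjusted p = 0.00016). At 10% CO2 it rose from 6.25, 6.05 and 5.26 to 13.8, 12.3 and 12.4 TPM (1.40, SE 0.14, adjusted p = 6.93e-07). FZD1 rose by 0.71 in shNT cells at both CO2 levels, with SEs of 0.10 and 0.11. Over all 6 comparisons FZD1 values ran from 0.71 to 1.06 and FZD7 values from 0.92 to 1.73, without overlap between the groups in any. Over all genes, 8.97% were higher and 8.49% lower with LPS without overlap in every comparison.

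**Figure D3:**
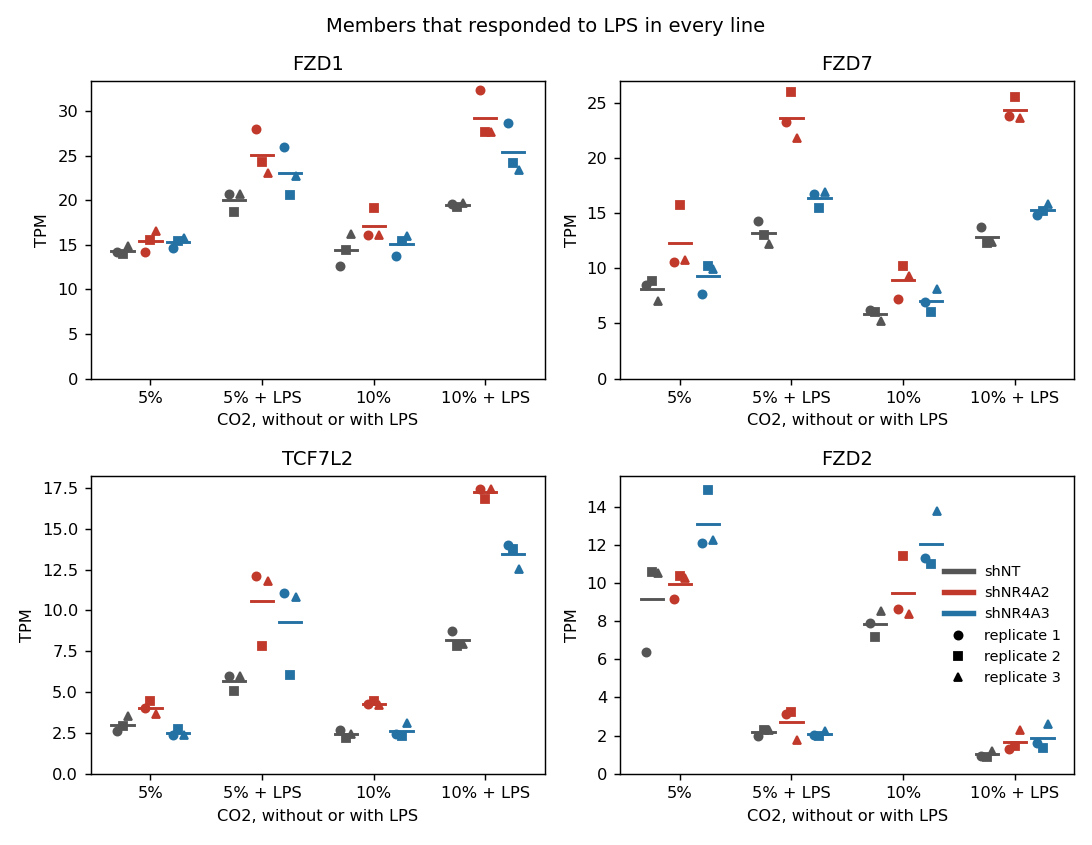
Levels (TPM, linear axes from 0) of FZD1, FZD7, TCF7L2 and FZD2 in the 36 libraries by culture state, coloured by line, with replicates as symbols and means of 3 as lines. FZD1, FZD7 and TCF7L2 are higher and FZD2 is lower with LPS in each line at both CO2 levels.

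The ligands moved in opposite directions with LPS. WNT7B was lower with LPS in all 18 same-number differences (−1.58 to −0.16 on the log2 scale), as were 14.6% of genes. The fall passed edgeR's test in shNR4A2 cells at 10% CO2 (−0.88, SE 0.14, adjusted p = 0.00013) and in shNT cells at 10% CO2 (−0.63, SE 0.19, adjusted p = 0.019). In shNR4A3 cells the values were −0.54 (SE 0.47) at 5% and −1.18 (SE 0.43) at 10% CO2. Replicate numbers paired the libraries there, and under the block edgeR's adjusted p was 0.0062 for −0.58 and 4.74e-07 for −1.19. At 5% CO2 the values were −0.44 (SE 0.23) in shNT and −0.26 (SE 0.36) in shNR4A2 cells. A call was gained in shNT cells at 5% CO2 without LPS replicate 2 (−0.70, adjusted p = 0.026) and in shNR4A3 cells at 10% CO2 without basal replicate 1 (−1.45, adjusted p = 0.0090) or LPS replicate 3 (−1.70, adjusted p = 0.010). Averaged over the 6 comparisons the fall was −0.66 (SE 0.17, adjusted p = 0.0015), in an average where 64.6% of genes were called. The shNT call at 10% CO2 was lost without shNT replicate 2 or 3 of the basal state or replicate 1 or 2 of the LPS state (edgeR adjusted p 0.0505 to 0.106 in these fits).

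WNT5B rose in shNT and shNR4A2 cells at 10% CO2 and in shNR4A3 cells at both levels. The largest value was in shNR4A3 cells at 10% CO2, from 0.723, 0.442 and 0.509 to 2.03, 2.26 and 1.55 TPM (log2 fold change 2.09, SE 0.30, edgeR adjusted p = 7.64e-05). The other called values lay between 1.11 and 1.21. At 5% CO2 the difference was 0.69 (SE 0.34) in shNT and 0.43 (SE 0.35) in shNR4A2 cells. Without single libraries the calls in shNT cells at 10% CO2 (basal replicate 2 or 3, or LPS replicate 3) and in shNR4A3 cells at 5% CO2 (basal replicate 1 or 2, or LPS replicate 1) were lost, at adjusted p of 0.058 to 0.076.

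LRP5, LRP6 and LEF1 had no call with LPS in any single comparison. LRP5 log2 fold changes ran from −0.20 to 0.04 and those of LRP6 from −0.22 to 0.27, with all intervals including 0. With the block, LRP5 passed in shNR4A3 cells at 10% CO2 (−0.14, adjusted p = 0.026) and in the average over comparisons (−0.09, adjusted p = 0.025). LEF1, a factor known mainly from lymphoid development, ran from −0.06 to 0.73. In shNT cells at 10% CO2 LEF1 went from 0.567, 0.829 and 1.24 to 1.39, 1.14 and 1.11 TPM (0.73, SE 0.29, edgeR adjusted p = 0.071, and 0.025 with the block). Averaged over the 6 comparisons LEF1 was called higher (0.36, SE 0.14, adjusted p = 0.021), where 64.6% of all genes were called. AXIN2 stayed at or below 8 counts in every library with or without LPS.

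**Figure D4:**
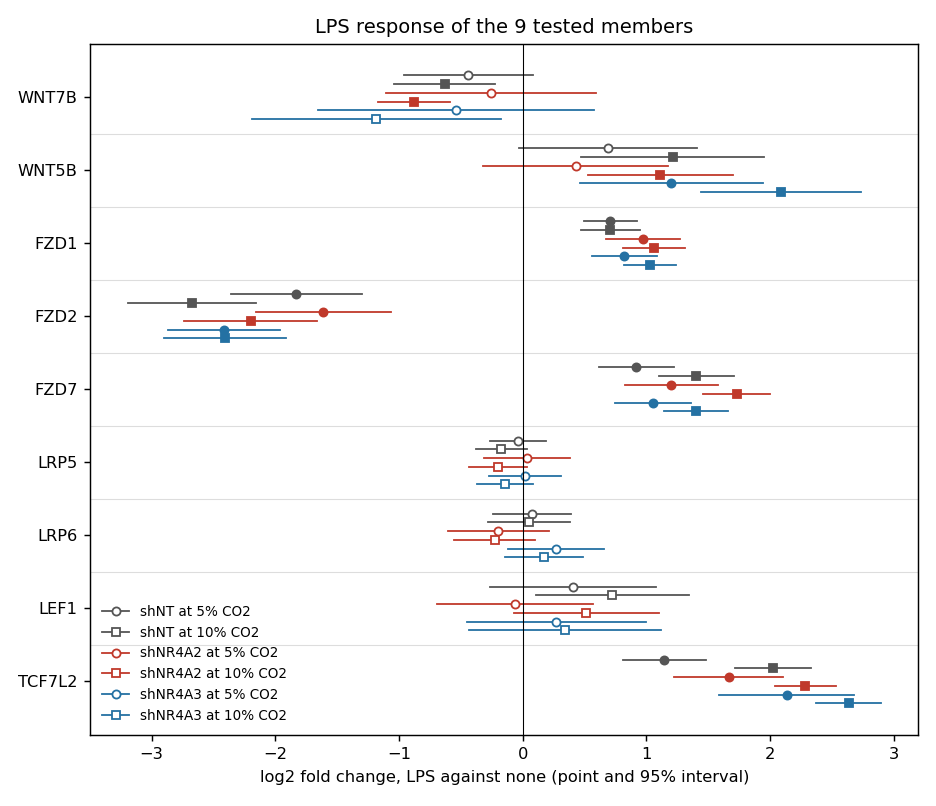
Log2 fold change with LPS (x axis, with 95% interval) of the 9 tested members in 3 lines at 5% CO2 (circles) and 10% CO2 (squares); filled points passed edgeR's test at an adjusted p under 0.05. All points of FZD1, FZD7 and TCF7L2 lie right of 0 and filled, and all points of FZD2 lie left of 0 and filled.

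Raising CO2 from 5% to 10% lowered WNT7B in shNT cells with LPS, and WNT7B stood lower at 10% in the other 5 comparisons without a call. In shNT cells with LPS the log2 fold change was −0.87 (SE 0.21, edgeR adjusted p = 0.031) and the 3 libraries at 10% lay below the 3 at 5%. In that comparison 8.19% of genes were called. Basal shNT cells had −0.67 (SE 0.20, adjusted p = 0.14). In shNR4A2 cells it was −0.77 (SE 0.21) basal and −1.41 (SE 0.33) with LPS, and in shNR4A3 cells −0.74 (SE 0.46) basal and −1.41 (SE 0.54) with LPS. Few genes were called in the comparisons where WNT7B was not, with 0.615% in basal shNT, 0.0113% and 0.198% in basal and LPS-treated shNR4A2 and 1.13% and 2.13% in basal and LPS-treated shNR4A3 cells. In shNR4A2 cells with LPS the WNT7B value passed without 5% CO2 replicate 2 (−0.95, adjusted p = 0.049) or 3 (−1.65, adjusted p = 0.0096). The groups did not overlap in either shNR4A2 comparison, on the log2 CPM scale.

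All 18 same-number differences in WNT7B were negative, with a median of −0.70 and a range of −2.53 to −0.18. This held for 2.93% of the 17720 genes. Replicate numbers paired the libraries in only 1 of the 6 CO2 comparisons, so these differences are not 18 matched experiments. Averaged over the 6 comparisons WNT7B fell by 0.98 on the log2 scale (SE 0.17, edgeR adjusted p = 6.98e-05), and 36.4% of genes were called in that average (17% higher and 19.4% lower). The single-comparison call in shNT cells with LPS was lost without 5% CO2 replicate 2 or without 10% CO2 replicate 1 or 2 (adjusted p up to 0.12). It was also lost in 1 fit to all 36 libraries (adjusted p = 0.23), whereas the averaged value held without any 1 library (−1.07 to −0.90).

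TCF7L2 was the other member called with CO2, among 54 values of which 2 passed, beside 2.05% of all gene-by-comparison values. In 16 of the 54 member values the groups did not overlap on the log2 CPM scale, against 22% of all values. In shNT cells with LPS it rose from 5.98, 5.08 and 5.97 TPM to 8.77, 7.79 and 7.96 TPM (0.66, SE 0.12, edgeR adjusted p = 0.010). With LPS it also stood at 0.75 (SE 0.18, adjusted p = 0.096) in shNR4A2 and 0.56 (SE 0.23, adjusted p = 0.24) in shNR4A3 cells, and the groups did not overlap in either line. Basal values were −0.22, 0.14 and 0.09 in shNT, shNR4A2 and shNR4A3 cells.

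FZD7 stood lower at 10% CO2 in basal cells of all 3 lines, at −0.39, −0.42 and −0.38 in shNT, shNR4A2 and shNR4A3 cells (SEs 0.15 to 0.19), with no call. The groups did not overlap on the log2 CPM scale, whereas in TPM those of shNR4A3 cells did (7.64, 10.3 and 9.91 at 5% against 6.94, 6.03 and 8.14 TPM at 10%). With LPS its values were 0.10, 0.10 and −0.05. LRP6 was positive in all 6 comparisons (0.27 to 0.44). FZD2 was −0.97 (SE 0.31, adjusted p = 0.068) in shNT cells with LPS. In the averaged fit LRP6 (0.33, SE 0.07), TCF7L2 (0.33, SE 0.08) and FZD1 (0.14, SE 0.05) were called higher and FZD2 (−0.33, SE 0.10) and FZD7 (−0.18, SE 0.06) lower at 10% CO2. That fit called 36.4% of all genes (17% higher and 19.4% lower). LRP5 averaged 0.06 (95% interval −0.06 to 0.18).

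**Figure D5:**
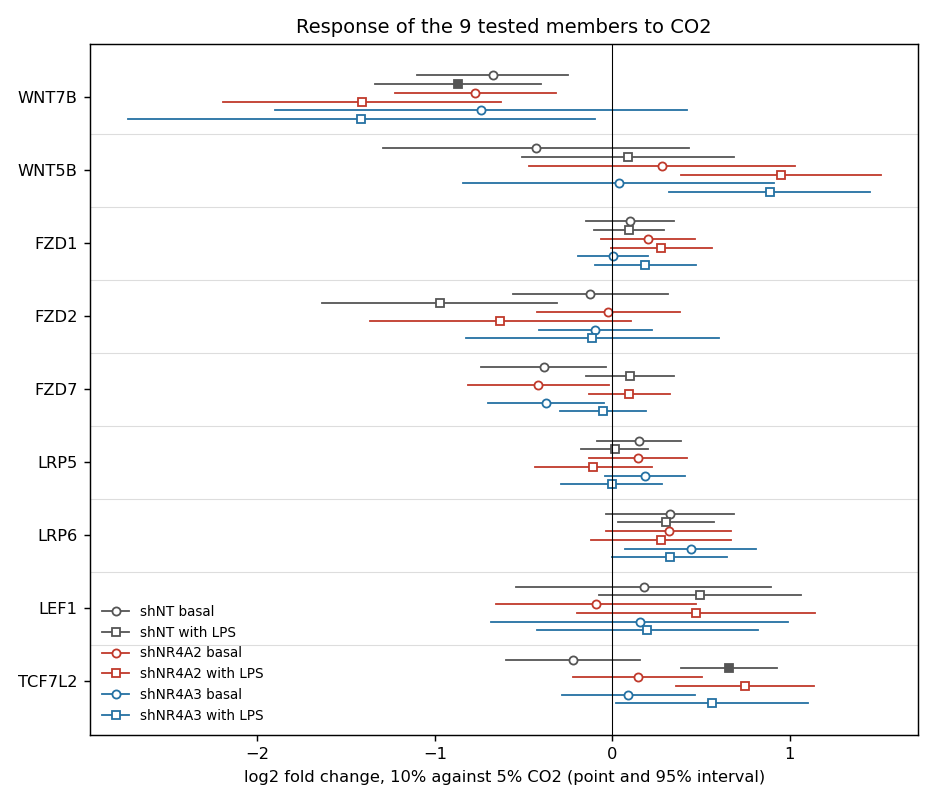
Log2 fold change at 10% against 5% CO2 (x axis, with 95% interval) of the 9 tested members in basal cells (circles) and cells with LPS (squares) of 3 lines; filled points passed edgeR's test at an adjusted p under 0.05. All 6 WNT7B points lie left of 0 and all 6 LRP6 points right of 0, and the 2 filled points are WNT7B and TCF7L2 in shNT cells with LPS.

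The CO2 response of no member differed between lines by edgeR's interaction test, in which 0% of genes were called. For WNT7B the response in shNR4A2 minus that in shNT cells was −0.10 (95% interval −0.85 to 0.65) basal and −0.52 (−1.56 to 0.52) with LPS. In shNR4A3 cells it was −0.07 (−1.29 to 1.14) basal and −0.52 (−1.94 to 0.89) with LPS. WNT5B was the 1 member with an unadjusted p under 0.05 in edgeR's 4 interactions, in shNR4A2 (0.88) and in shNR4A3 cells with LPS (0.82), which makes 2 of 36 values beside 2.02% of all gene-by-comparison values. DESeq2 also called 0 member values.

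The LPS response of no member differed between lines after adjustment, beside 0.0607% of gene-by-comparison values called (0.0451% in shNR4A2 and 0.198% in shNR4A3 cells at 10% CO2, and 0% at 5% CO2). Of 36 member values, 4 had an unadjusted p under 0.05, beside 4.76% of all values. They were those of TCF7L2 in shNR4A3 cells at both CO2 levels and of FZD1 in both hairpin lines at 10% CO2, and DESeq2 called 0. TCF7L2 had the smallest unadjusted p, with a response larger in shNR4A3 than in shNT cells by 1.00 (95% interval 0.35 to 1.65, edgeR adjusted p = 0.91) at 5% CO2 and by 0.60 (0.22 to 0.98, adjusted p = 0.32) at 10% CO2. For WNT7B the differences lay between −0.56 and 0.19, with intervals that reached from −1.71 to 1.33.

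The wider pathway was examined in 86 other Wnt genes, of which 63 passed the filter. The 23 that did not included WNT1, WNT2, WNT3A, WNT4 and WNT5A, the canonical target LGR5 and the antagonist DKK1. WNT7A, the closest relative of WNT7B, had at most 2 counts in any library. Both WNT7 co-receptors were present, with ADGRA2 at a mean of 115 TPM and RECK at 13.8 TPM. CTNNB1, which encodes β-catenin, averaged 268 TPM.

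With LPS 152 of 378 values of these genes were called (67 higher and 85 lower), beside 29.1% of all values, and library-total scaling gave 48 higher and 147 lower. By gene, 16 were called higher and 28 lower in at least 1 comparison, none in both directions, beside 24.8% and 27.6% of all genes. The ligand WNT6 fell in all 6 comparisons, for example from 17.6, 19.6 and 26.8 to 2.56, 1.84 and 2.75 TPM in shNT cells at 10% CO2 (−2.88, SE 0.22, edgeR adjusted p = 1.85e-08). WNT9A also fell in all 6, by up to −2.71 (SE 0.30) in shNR4A3 cells at 10% CO2. MYC, a growth regulator and common Wnt target, fell from 364, 411 and 444 to 37.9, 31.7 and 38.2 TPM in shNT cells at 10% CO2 (−3.23, SE 0.10, adjusted p = 1.01e-13). The target ASCL2 fell in 3 comparisons, most in shNR4A2 cells at 10% CO2 (−1.76, SE 0.37).

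Among genes that rose with LPS, BCL9L, a β-catenin co-activator, rose in all 6, from 7.18, 6.06 and 6.96 to 20.0, 21.0 and 22.0 TPM in shNR4A3 cells at 10% CO2 (1.91, SE 0.09, edgeR adjusted p = 1.44e-09). The secreted antagonist SFRP2 was called higher in all 6, from 0, 2 and 2 counts to 31, 31 and 23 counts in shNT cells at 10% CO2 (adjusted p = 9.25e-06). The Wnt target SP5 was called in 4 comparisons, from 0, 1 and 1 to 11, 18 and 13 counts in shNR4A3 cells at 10% CO2 (adjusted p = 0.00017). The receptor ROR2 was also called in 4, from 2, 1 and 3 to 8, 12 and 11 counts in shNT cells at 5% CO2 (adjusted p = 0.011). Folds of the last 3 are not given because their basal counts were so low. By role, 2 of the 6 targets were called higher and 4 lower, and 4 of the 8 antagonists were called higher and 2 lower. Of the WNT7 co-receptors, ADGRA2 (−0.23, adjusted p = 0.026) and RECK (−0.34, adjusted p = 0.0062) were called lower in shNR4A3 cells at 10% CO2 alone.

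With CO2, 15 of 378 values were called (8 higher and 7 lower), beside 2.05% of all values. LGR4, a receptor for R-spondins, rose in shNR4A3 cells with LPS from 13.3, 12.4 and 14.6 to 26.8, 38.9 and 28.3 TPM (1.26, SE 0.13, edgeR adjusted p = 0.018). It was also called higher in shNT cells with LPS (0.98, SE 0.13, adjusted p = 0.0058). The receptor FZD3 rose with LPS in shNR4A3 (0.96, SE 0.22, adjusted p = 0.0498) and in shNT cells (0.95, SE 0.17, adjusted p = 0.011). The antagonist DKK2 rose in shNT cells with LPS (0.69, SE 0.17, adjusted p = 0.030), and the co-repressor TLE1 in basal shNR4A3 cells (0.58, SE 0.10, adjusted p = 0.019). NKD2, a negative regulator of Dishevelled, fell in shNT cells with LPS from 145, 143 and 123 to 86.2, 59.8 and 82.6 TPM (−0.72, SE 0.10, adjusted p = 0.0041). It was also called lower in shNR4A3 cells with LPS (−0.71, SE 0.10, adjusted p = 0.019). Also lower were CTNNBIP1, an inhibitor of β-catenin (−0.45, SE 0.10, in shNR4A3 cells with LPS), MYC (−0.41, SE 0.11, in shNT cells with LPS) and TLE3 (−0.38, SE 0.09, in basal shNR4A3 cells). CTNNBIP1 was called lower in shNT cells with LPS as well (−0.36, SE 0.09, adjusted p = 0.026).

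In shNR4A3 against shNT cells, 40 of 252 values were called, 8 higher and 32 lower, beside 8.24% of all values, and 70 with the replicate block, where 17.5% of all values were called. Being called higher in all 4 states held for 1.26% of genes and being called lower in all 4 for 1.05%. ADGRA2 fell in all 4 states, by −0.43 to −0.62 on the log2 scale (edgeR adjusted p 0.038 to 0.00049), and RECK had no call (0.04 to 0.18). LGR4 fell in all 4 states, at 5% CO2 with LPS from 40.2, 43.2 and 45.8 to 13.3, 12.4 and 14.6 TPM (−1.62, SE 0.11, adjusted p = 1.16e-05). The antagonist SFRP1 fell in all 4 as well, most at 10% CO2 with LPS (−1.09, SE 0.10, adjusted p = 1.12e-05). WNT9A (−1.44, SE 0.41) and FZD3 (−0.91, SE 0.15) fell in 2 states each. CCND1, a cell-cycle gene and common Wnt target, rose in all 4, at 5% CO2 with LPS from 19.3, 19.1 and 17.6 to 38.8, 39.8 and 38.7 TPM (1.12, SE 0.09, adjusted p = 3.75e-05). SFRP2 (1.72, SE 0.24), DKK2 (0.47, SE 0.13) and BCL9L (0.45, SE 0.10) were higher at 10% CO2 with LPS. CCND1, LGR4, SFRP1 and SFRP2 stood on the same side of shNT in shNR4A2 cells, described without a test. At 5% CO2 with LPS, CCND1 averaged 43.75 TPM in shNR4A2 and 18.7 TPM in shNT cells, and LGR4 22.9 and 43.05 TPM. At 10% CO2 with LPS, SFRP1 averaged 27.2 and 37.8 TPM and SFRP2 10.8 and 2.40 TPM in the same order. In shNR4A2 against shNT cells, 40 of the 252 values passed the threshold (18 higher and 22 lower), beside 9.68% of all values, and 77 did with the block (23.2% of all values), and ADGRA2 differed by −0.27 to −0.11.

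The 5 genes whose 12 condition means followed WNT7B most closely, among 13976 genes at 1 CPM or more on average, were ACAA2 (Pearson r = 0.964), PDLIM4 (0.960), CABLES2 (0.955), ABHD4 (0.955) and TRPT1 (0.954). ACAA2 encodes a mitochondrial thiolase of fatty acid oxidation and ranged over condition means from 16.0 to 31.7 TPM. PDLIM4 ranged from 6.46 to 28.8 TPM and ABHD4 from 2.23 to 7.19 TPM. These are correlations over 12 means that share lines, CO2 levels and LPS states, and the rule that chose WNT7B used part of the same pattern. By Spearman's rho the closest genes were ABHD4 (0.993), PLEKHG5 (0.986) and SCG2 (0.979), followed by ACAA2, TRPT1 and CAMK2B, which tied at 0.965. No other member followed WNT7B as closely, the nearest being FZD2 at r = 0.36, and LRP6 ran opposite to it at r = −0.71.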

How the data were processed

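Reads of the 36 libraries were trimmed with Trimmomatic 0.36, aligned to GRCh38 with STAR 2.5.2b and counted per gene with featureCounts (Subread 1.5.2) by the authors, per the labels. The deposited values are whole counts of unique gene hits, not normalized, with 1 library per file. The annotation release and strand setting are not given in the sources used here. Symbols were matched by gene ID for 56410 IDs (98.1%).

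TPM was computed from counts and the exon lengths in the files. Genes passing filterByExpr (minimum count 10, minimum total 15) over the 12 conditions were tested with the quasi-likelihood F test of edgeR 4.0.16 (R 4.3.3, TMM, robust), on the libraries of each comparison alone, with Benjamini-Hochberg adjustment over 17720 genes, and called at an adjusted p under 0.05. Interactions used 12 libraries. Standard errors were taken as the absolute log2 fold change over √F. The study's methods name DESeq2, which is an alternative here (1.42.0), with RLE, library size only, no filter, filters at 1 CPM or within the comparison, a replicate block, 1 fit to all 36 libraries and each library left out. Averaged contrasts were added after the data were seen. log2 CPM used a prior count of 2.

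The members and the lists of other genes were chosen with earlier results of these data known. Of the other Wnt genes, up to 4 called genes per direction with the largest non-overlapping change are named in each family, beside WNT7A, RECK and ADGRA2; CTNNB1, LGR5, DKK1 and the other ligands that failed the filter were named after their values were seen.

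Same-numbered libraries counted as paired where all 3 correlations of their deviations passed 0.1, which held in 14 of 28 comparisons. The study describes its replicates as individual experiments, and the labels do not say whether a number marks the same experiment across conditions. No replicate pair agreed within sampling noise (chi-square per degree of freedom 6.62 to 29.6). The tests were also run on simulated counts with known changes. Those counts held no replicate effect, so they do not show how the tests behave where libraries were paired.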

Additional observations from a re-analysis of the deposited data

Results flagged for a closer look

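Among the members and the 63 other tested Wnt genes, 1 gene had a response that was called different between lines. The call was in shNR4A2 cells at 10% CO2, where 0.0451% of all genes were called for the LPS interaction. The fall of MYC with LPS at 10% CO2 was smaller in shNR4A2 than in shNT cells, by 1.18 on the log2 scale (SE 0.16, edgeR interaction, adjusted p = 0.0033). MYC stood at 364, 411 and 444 TPM basal and 37.9, 31.7 and 38.2 TPM with LPS in shNT cells. In shNR4A2 cells it stood at 251, 267 and 237 TPM basal and 55.5, 41.3 and 53.5 TPM with LPS. The value was 1.07 to 1.35 without single libraries, and the adjusted p was 0.065 in 1 fit to all 36 libraries. At 5% CO2 the log2 fold change of MYC with LPS was −1.605 (SE 0.17) in shNR4A2 and −2.733 (SE 0.10) in shNT cells. The interaction at 5% CO2 was not called, where 0% of genes were.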

How the results depend on the processing

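No called member value changed direction under any alternative, and 228 of 4016 member values changed sign, each uncalled in both fits and at most 0.29 in size. Calls of members with CO2 numbered 2, and 4 with DESeq2 or the replicate block (which added TCF7L2 in shNR4A2 cells with LPS, 0.78, and WNT7B in basal shNR4A3 cells, in comparisons not counted as paired) and 6 with no filter or 1 fit to all 36 libraries (1 to 4 without single libraries). Member calls in shNR4A3 against shNT were 3, and 10 with the block (2 to 5 without single libraries). Interaction calls with LPS were 0, and 1 with no filter or without 1 library (0 to 1). Calls of other Wnt genes with CO2 were 15, and 23, 35 and 30 with DESeq2, no filter and the block, and those in shNR4A3 and shNR4A2 against shNT were 40 each, and 70 and 77 with the block.

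For WNT7B with CO2, no filter gave calls in basal shNT (−0.66) and shNR4A2 cells (−0.77), DESeq2 (−1.42) and all 36 libraries (−1.41) in shNR4A2 cells with LPS, and the block in basal shNR4A3 cells (−0.77), while all 36 libraries lost the call in shNT cells with LPS (−0.87). With LPS, calls were gained in shNT at 5% CO2 with no filter (−0.44) and the block (−0.44), in shNR4A3 at 5% with the block (−0.58), and in shNR4A3 at 10% with library size only (−1.44), DESeq2 (−1.18), no filter (−1.22) and the block (−1.19). All 36 libraries lost those in shNT (−0.64) and shNR4A2 cells at 10% (−0.89). Single libraries moved WNT7B with CO2 within −1.05 to −0.61 in shNT and −1.65 to −0.95 in shNR4A2 cells with LPS. With LPS the ranges were −0.70 to −0.23 and −0.81 to −0.46 in shNT at 5% and 10%, −0.70 to 0.090 in shNR4A2 at 5% and −1.70 to −0.81 in shNR4A3 at 10%. Signs of uncalled WNT7B values changed in shNR4A3 against shNT at 5% (−0.54 to 0.0047) and in interactions with CO2 in basal shNR4A2 (−0.30 to 0.26) and shNR4A3 cells (−0.44 to 0.19) and with LPS at 5% in shNR4A2 (−0.27 to 0.54) and shNR4A3 cells (−0.61 to 0.25). Causes were not tested where no value above shows one. In shNR4A3 against shNT cells the block added WNT7B calls at 10% CO2 (−0.42), at 10% CO2 with LPS (−0.95) and in the average over states (−0.52). Among the tested comparisons the block changed no call of WNT7B beyond those named in this paragraph. Low counts of AXIN2, WNT5B and LEF1 limit what can be detected in them.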
